A study of Mus musculus with 6 samples.

Results

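Gimap3, Gimap4 and Gimap6 encode GIMAP proteins, the GTPases of immunity-associated proteins, and were followed across 6 expression arrays of sorted mouse regulatory T cells (Treg). They are 3 of the 8 GIMAP genes in the mouse reference table and 3 of the 12393 genes measured. Every probe set whose single annotated symbol was one of these names was taken, which gave 4 probe sets: 1 for Gimap3, 2 for Gimap4 and 1 for Gimap6. The 3 genes were chosen with their lower values in the USP7-titled arrays already known, so their difference between the groups is described without a test.

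RNA came from cells sorted as CD4+YFP+, and each group has 3 arrays. The USP7-titled arrays have USP7 in their titles and a genotype field that reads fl-HDAC11/Foxp3cre, whereas the series text describes floxed Usp7 with Foxp3cre. The control arrays have B6_WT titles and the genotype Foxp3cre. All 6 samples share the C57BL/6 background and the Foxp3cre allele, which drives Cre recombinase in cells that express Foxp3, the defining transcription factor of Treg. Groups follow the titles, and the conflict over the floxed gene stands. The series text calls the samples independent but not whether they are separate animals, so a p-value here covers sample-to-sample spread, which may be technical.

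GIMAP genes sit side by side in 1 cluster on mouse chromosome 6 and are expressed mainly in lymphocytes. Their proteins bind GTP, several are anchored in membranes of organelles, and they are known for supporting the survival and quiet state of lymphocytes: loss of Gimap5 in mice and rats, and of Gimap1 in mice, leaves animals short of mature T cells. Gimap3 is a membrane-anchored relative of Gimap5, and both bind the survival proteins Bcl-2 and Bcl-xL in mouse T cells. Gimap4 lacks such an anchor and has been linked to the death-promoting protein Bax. Gimap6 binds Gabarapl2, a protein of the autophagy machinery.

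The DNA just upstream of the 3 genes is shown with that of Gimap7, whose values differed in direction from theirs but did not pass the test given below. Each sequence is the 250 bases before the annotated start, read 5′ to 3′ on the gene's own strand from RefSeq (build GRCm38.p6), and all 8 GIMAP genes had an entry. Capitals mark matches, on either strand, to 5 short motifs. The forkhead core was searched as TGTTTA. The Runx core was searched as TGTGGT. The Ets core was searched as AGGAAG, the GATA core as AGATAA and the Rbpj core as TGGGAA; the motifs do not overlap one another in these sequences. The Gimap3 sequence lies at chr6:48770852-48771101 on the minus strand, Gimap4 at chr6:48684328-48684577 on the plus strand, Gimap6 at chr6:48708245-48708494 on the minus strand and Gimap7 at chr6:48718371-48718620 on the plus strand.
Gimap3: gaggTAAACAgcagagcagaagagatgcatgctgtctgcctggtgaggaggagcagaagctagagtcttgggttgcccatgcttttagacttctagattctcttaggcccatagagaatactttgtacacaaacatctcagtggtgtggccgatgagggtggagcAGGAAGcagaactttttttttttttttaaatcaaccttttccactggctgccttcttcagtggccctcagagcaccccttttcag
Gimap4: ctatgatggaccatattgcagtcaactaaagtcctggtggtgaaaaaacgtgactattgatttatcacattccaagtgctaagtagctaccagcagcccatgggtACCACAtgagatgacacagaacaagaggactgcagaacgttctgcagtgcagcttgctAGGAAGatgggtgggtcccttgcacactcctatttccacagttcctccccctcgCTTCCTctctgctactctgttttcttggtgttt
Gimap6: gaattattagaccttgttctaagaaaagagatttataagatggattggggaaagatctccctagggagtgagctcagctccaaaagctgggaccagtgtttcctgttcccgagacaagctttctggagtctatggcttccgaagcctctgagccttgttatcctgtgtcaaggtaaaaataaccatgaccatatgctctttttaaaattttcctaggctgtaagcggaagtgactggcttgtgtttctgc
Gimap7: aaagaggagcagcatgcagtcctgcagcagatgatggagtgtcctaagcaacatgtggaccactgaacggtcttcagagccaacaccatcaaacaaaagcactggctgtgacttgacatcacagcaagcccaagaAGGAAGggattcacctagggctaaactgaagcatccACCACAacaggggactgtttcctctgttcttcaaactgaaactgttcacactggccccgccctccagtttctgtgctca
Gimap3 had a forkhead core and an Ets core. Gimap4 had a Runx core and an Ets core on each strand. Gimap6 had no match to any of the 5 motifs as searched. It does hold CGGAAG, which differs from the searched Ets letters only in its first base. Gimap7 had a Runx core and an Ets core, and so did Gimap1 (change -0.10), whose sequence is not shown. The shares of all 32817 upstream windows of this length with a match were 12% for the forkhead core, 14% for the Runx core and 29.5% for the Ets core. They were 9.99% for the GATA core and 21.6% for the Rbpj core. No motif as searched was found in all 3 genes, but only exact letters were searched, so variant sites were not counted. A match is a run of letters, not a shown binding site.

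Before the GIMAP genes, the targeted gene and the cell label were checked. Usp7, the deubiquitinase of the titles, read 10.54, 10.69 and 10.76 on the log2 scale in USP7-titled arrays, against 11.69, 11.73 and 11.61 in control arrays, and changed by -1.01 (SE 0.07, limma adjusted p = 1.32e-06). The dimmer Usp7 probe set changed by -0.98 and also passed. Hdac11, dim in both groups, changed by -0.58 (SE 0.16, limma adjusted p = 0.0154). It did not pass when USP7-titled replicate 2 or control replicate 1 was left out (limma adjusted p = 0.0559 and 0.0742). The dimmer Hdac11 probe set was at -0.22 and did not pass. Foxp3 read 6.85, 7.29 and 6.87 in USP7-titled arrays, against 12.82, 13.13 and 12.99 in control arrays, so the marker that defines Treg was far lower in the USP7-titled arrays. Another Treg marker, the IL-2 receptor chain Il2ra, stayed bright but fell by 0.17 (limma adjusted p = 0.00207). Of 10 Treg markers 9 fell, against 15.9% of all genes, as given below. The X-inactivation RNA Xist changed by -7.20 and the Y-linked Eif2s3y by 5.65, so the sex of the mice and the group cannot be told apart. Array medians ran from 7.97 to 8.02 over gene probe sets, and arrays correlated at 0.991 to 0.992 within the USP7-titled group, 0.995 to 0.996 within controls and 0.969 to 0.974 between groups.

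All 3 genes were bright and a little dimmer in USP7-titled arrays. By the brightest probe set of each, the differences were -0.43 for Gimap3, -0.36 for Gimap6 and -0.25 for Gimap4 on the log2 scale, which is 74.3%, 77.7% and 84.3% of the control level. Each of the 4 probe sets read lower in every USP7-titled array than in every control array. Of 20380 gene probe sets, 25.2% lay lower without overlap in the same way, and since the genes were picked on this contrast nothing is read from the count. In bulk RNA, fewer cells that carry a transcript and less of it per cell cannot be told apart.

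Gimap3 read 12.66, 12.68 and 12.66 in USP7-titled arrays, against 13.10, 13.11 and 13.08 in control arrays. It averaged 12.67 ± 0.0109 in USP7-titled arrays and 13.10 ± 0.0159 in control arrays (SD, n = 3 each), a difference of -0.43 (SE 0.03). The lowest control array stood 0.398 above the highest USP7-titled array, a gap 13.6 times as wide as the wider of the groups' ranges. This was the widest separation of the 4 probe sets in both respects.

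Gimap6 read 12.05, 12.07 and 12.07 in USP7-titled arrays, against 12.45, 12.36 and 12.46 in control arrays. It averaged 12.06 ± 0.0075 in USP7-titled arrays and 12.43 ± 0.0541 in control arrays (SD, n = 3 each), a difference of -0.36 (SE 0.04). The USP7-titled arrays were nearly identical, and control replicate 2 was the low one of its group, still 0.296 above the USP7-titled arrays.

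Gimap4 was read by a pair of probe sets that gave nearly the same difference. The brighter one read 12.68, 12.78 and 12.74 in USP7-titled arrays, against 12.97, 12.96 and 13.02 in control arrays, a difference of -0.25 (SE 0.04). Its name ends in _s_at, the array maker's mark for probes found in more than 1 transcript. The dimmer one read 12.39, 12.39 and 12.38 in USP7-titled arrays, against 12.64, 12.61 and 12.60 in control arrays, a difference of -0.23 (SE 0.03). The 2 differences are 0.0158 apart, less than the SE of either, and in both probe sets the groups were apart.

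**Figure D1:**
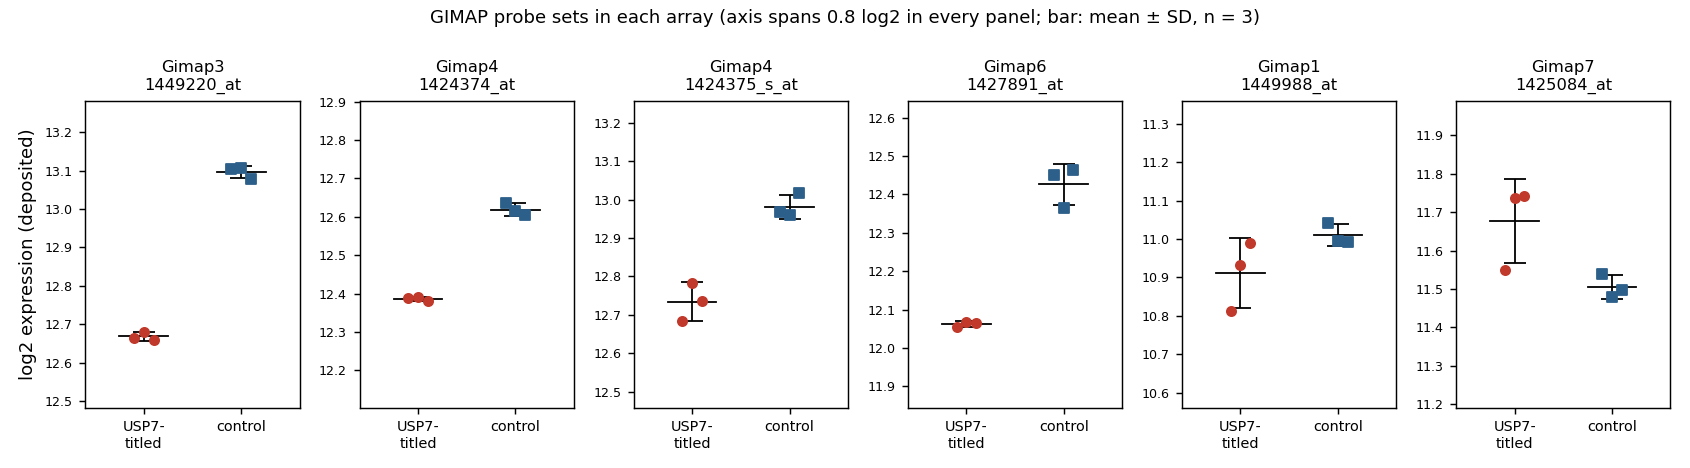
Log2 expression of the 4 Gimap3, Gimap4 and Gimap6 probe sets and of Gimap1 and Gimap7 in each array, with USP7-titled arrays as red circles and control arrays as blue squares; horizontal lines are means and bars SD (n = 3 each). Gimap3 sits near 12.67 in USP7-titled and 13.10 in control arrays with almost no spread, whereas in Gimap1 and Gimap7 the groups nearly touch.

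These are small changes with a small spread. The median residual SD was 0.141 over all gene probe sets. It was 0.0411 over the 312 at least as bright in control arrays as the dimmest of the 4 GIMAP probe sets. Gimap6 (0.0386) and the brighter Gimap4 probe set (0.0418) were near that value. Gimap3 (0.0136) and the dimmer Gimap4 probe set (0.0122) were well under it, and 3 arrays per group give only a loose estimate of spread. In size the GIMAP changes were ordinary: 12.5% of gene probe sets had a change as low as that of Gimap3 or lower, 15.8% as low as that of Gimap6, and 24.9% and 26.6% as low as those of Gimap4. Their control means stood between the 98.5th and 99.4th percentiles of gene probe sets, with the brightest value on any array at 14.47. Signals this bright can be compressed on arrays, and no scanner data were used here to test it. The control arrays did not share an order across the genes: control replicate 2 was the lowest control for Gimap6 and the highest for Gimap3. USP7-titled replicate 2 was the highest of its group in each of the 4 probe sets. It stood 0.0124 above the group mean for Gimap3, 0.0053 for Gimap6, and 0.0489 and 0.0043 for the brighter and dimmer Gimap4 probe sets.

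The size of the decrease depended on how arrays were scaled. Arrays were scaled to the 18 probe sets of the hybridization spikes, a few bacterial and phage transcripts that are added to the hybridization mix. The median of all 12393 genes then moved to 0.108, against -0.05 as deposited. Gimap3 then differed by -0.27, Gimap6 by -0.20, and Gimap4 by -0.09 and -0.07. The groups stayed apart for Gimap3 and Gimap6 and overlapped for both Gimap4 probe sets. This scaling shifts all genes of an array by 1 constant, so it leaves the distance to the median gene as it was: -0.38 for Gimap3, -0.31 for Gimap6 and -0.20 and -0.18 for Gimap4.

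**Figure D2:**
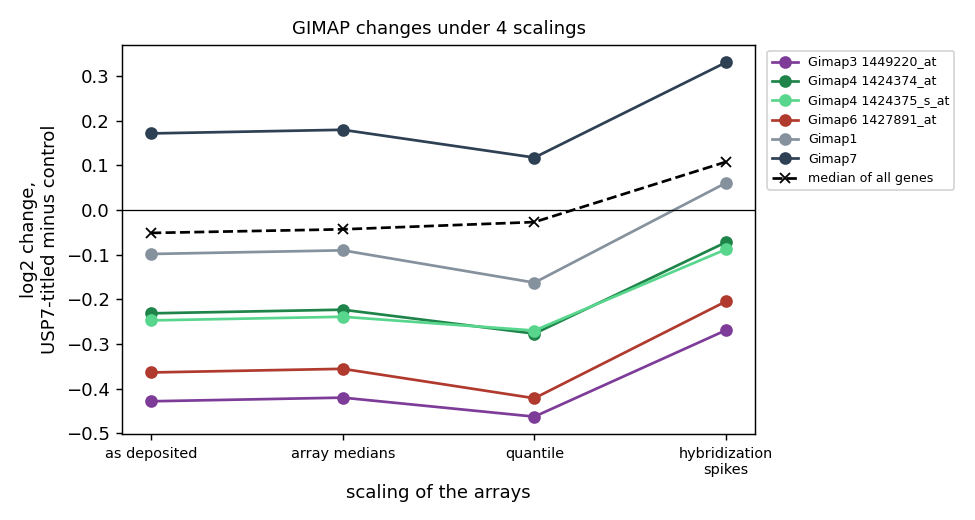
Log2 change (USP7-titled minus control) of each GIMAP probe set and of the median gene (dashed) under 4 scalings of the arrays. The Gimap3, Gimap4 and Gimap6 lines stay under 0 and under the median gene throughout, Gimap1 crosses to 0.06 with the hybridization spikes, and Gimap7 lies above 0 in each.

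The 2 other GIMAP genes on the array, which the choice of genes did not use, did not pass the test. Gimap1, needed for mature T and B cells in mice, read 10.81, 10.93 and 10.991 in USP7-titled arrays, against 11.04, 10.996 and 10.992 in control arrays. Its change was -0.10 (SE 0.07, limma adjusted p = 0.299). Its lowest array was USP7-titled replicate 1, and leaving that out gave -0.05. Its groups met without overlapping, and with the hybridization spikes its change turned to 0.06. Gimap7, whose human counterpart speeds GTP hydrolysis by a GIMAP partner, read 11.55, 11.74 and 11.74 in USP7-titled arrays, against 11.54, 11.48 and 11.50 in control arrays. Its change was 0.17 (SE 0.06, limma adjusted p = 0.0531).

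Gimap7 thus lay above its controls in 3 of 3 USP7-titled arrays, by little in replicate 1. Without USP7-titled replicate 1 its change was 0.23 (limma adjusted p = 0.00933), and over all alternatives the limma adjusted p ran from 0.00933 to 0.181. Of all genes, 32.9% passed the threshold and 45.6% had groups that did not overlap. Gimap5, Gimap8 and Gimap9 had no probe set with their single symbol in the annotation and were not analysed here.

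Genes flanking the GIMAP cluster went both ways. Of the 10 nearest measured genes on each side, 3 of 20 were higher and 3 lower by the limma test, against 17.0% of all genes that rose and 15.9% that fell. The median change of the 20 was -0.08, against -0.05 for all genes. Repin1, a zinc finger gene and the nearest measured neighbour on one side, read 8.86, 9.05 and 9.17 in USP7-titled arrays, against 8.12, 8.05 and 8.28 in control arrays, and rose by 0.88 (SE 0.12, limma adjusted p = 0.000208); of its dimmer probe sets, 1 rose by 1.02 and the other was at 0.05. Rarres2, the next one out, which encodes the chemoattractant chemerin, fell by 0.43 (SE 0.10, limma adjusted p = 0.00572).

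Lrrc61 fell by 0.48 (limma adjusted p = 0.0266) and Krba1 by 0.54 (limma adjusted p = 0.0101). Lrrc61 did not pass without USP7-titled replicate 1 or 2 or control replicate 2 or 3 (limma adjusted p = 0.0871, 0.0842, 0.0622 and 0.0965), and Rarres2, Lrrc61 and Krba1 did not pass with the hybridization spikes (limma adjusted p = 0.0939, 0.165 and 0.0624). On the other side the nearest measured gene, the membrane protein gene Tmem176b, was at -0.10 (SE 0.17, limma adjusted p = 0.684), and its sign turned with the hybridization spikes (0.06) and without USP7-titled replicate 3 (0.07). Farther out on that side the RNA-binding protein gene Igf2bp3 rose by 1.13 (limma adjusted p = 9.13e-06) and the scaffold gene Mpp6 by 0.87 (limma adjusted p = 7.03e-05).

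**Figure D3:**
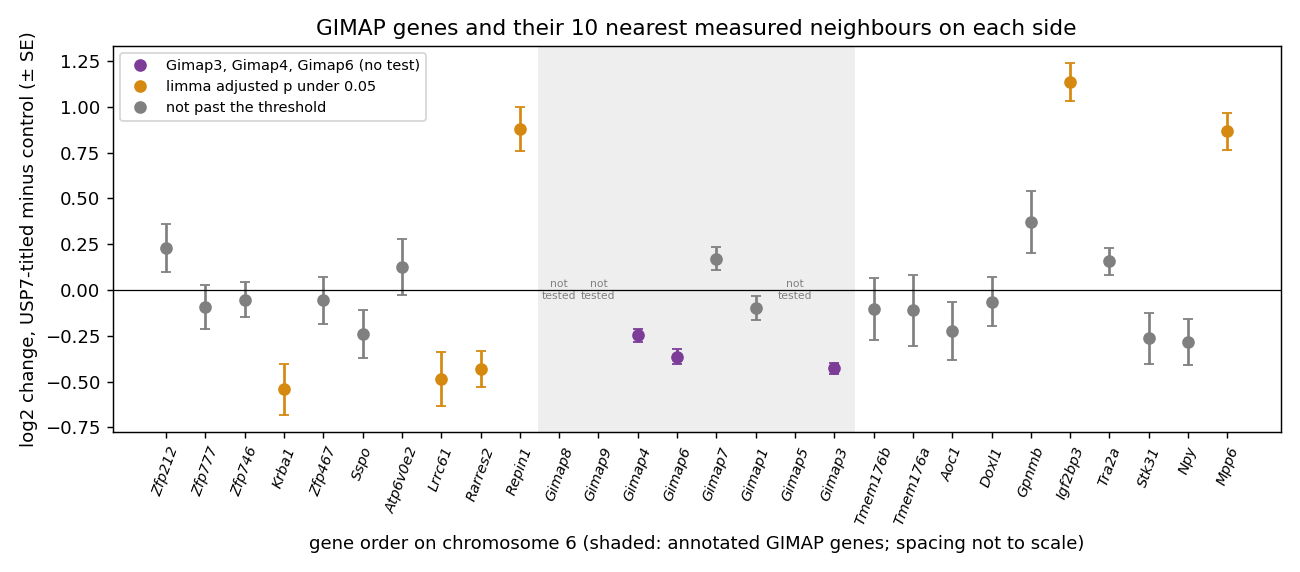
Log2 change (USP7-titled minus control, ± SE) of the GIMAP genes and of the 10 nearest measured genes on each side, in chromosome order and with spacing not to scale. Gimap3, Gimap4 and Gimap6 (purple, no test) lie between -0.43 and -0.25, Gimap7 between them at 0.17, and flanking genes past the threshold (orange) on both sides of 0.

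Other genes of lymphocyte survival and quiescence were mostly lower too. Of 25 listed genes 21 were measured: 16 fell and 0 rose. The median change was -0.35, against -0.05 for all genes, of which 15.9% were lower. Earlier results of these data had already shown a lower naive T cell list that shares genes with this one, so the count is not independent support. Il7r, the receptor for the survival cytokine IL-7, read 10.12, 10.28 and 10.52 in USP7-titled arrays, against 11.62, 11.57 and 11.66 in control arrays, and fell by 1.31 (SE 0.09, limma adjusted p = 1.62e-06). Bach2, a repressor that keeps lymphocytes quiet, fell by 1.07 (SE 0.13, limma adjusted p = 6.72e-05).

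The survival gene Bcl2 read 11.64, 11.79 and 11.63 in USP7-titled arrays, against 12.64, 12.59 and 12.58 in control arrays, and fell by 0.92 (SE 0.05, limma adjusted p = 2.4e-07). Jak1, a kinase of cytokine receptors, fell by 0.60 (SE 0.07, limma adjusted p = 4.61e-05), and S1pr1, the receptor that guides lymphocytes out of lymph nodes, fell by 0.57 (SE 0.10, limma adjusted p = 0.000806). These 5 genes were named for having the largest changes of the list. Klf2, a quiescence factor, was at 0.15 (SE 0.07, limma adjusted p = 0.109), chosen for mention after its value was seen. With the hybridization spikes the falls numbered 8 and the rises 1, and the median was -0.19.

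**Figure D4:**
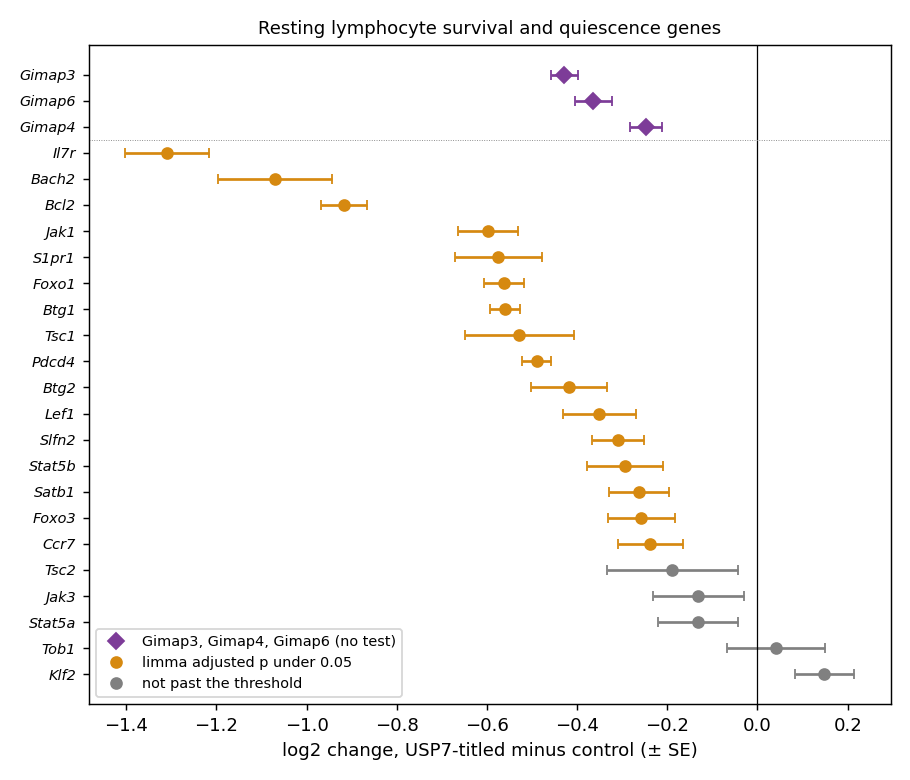
Log2 change (USP7-titled minus control, ± SE) of the 21 measured resting lymphocyte genes, with Gimap3, Gimap6 and Gimap4 (purple diamonds, no test) on top. Il7r is the lowest at -1.31, 16 genes past the threshold (orange) lie under 0, and Tob1 and Klf2 are the ones above 0.

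Binding partners of GIMAP proteins and their neighbours in apoptosis and autophagy went in both directions. Of 18 measured members 3 were higher and 4 lower, against 32.9% of all genes past the threshold in either direction, and the median was 0.0029. On the apoptosis side Bcl2 fell, as did Bcl2l11, which encodes the death-promoting Bim (-0.52, SE 0.13, limma adjusted p = 0.00861); without control replicate 3, its highest array, the change of Bcl2l11 was -0.35 and still passed. Bak1 and Bad, which also promote death, rose by 0.96 (SE 0.08, limma adjusted p = 4.03e-06) and 0.89 (SE 0.09, limma adjusted p = 2.24e-05). To complete the count of lower members, Mcl1 fell by 0.34 (limma adjusted p = 3.9e-05) and Becn1 by 0.28 (limma adjusted p = 0.0485).

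Bak1 read 12.23, 12.13 and 12.08 in USP7-titled arrays, against 11.03, 11.36 and 11.15 in control arrays, so its groups were far apart. Bid rose by 0.41 (SE 0.13, limma adjusted p = 0.0315), but not without USP7-titled replicate 2 or 3 or control replicate 1 or 2 (limma adjusted p = 0.103, 0.104, 0.0600 and 0.122). Gabarapl2, the Gimap6 partner, was at 0.16 (SE 0.10, limma adjusted p = 0.224) and was picked for that role. Bcl2l1, which encodes the Gimap3 partner Bcl-xL, was picked likewise and was at -0.11 (SE 0.09, limma adjusted p = 0.420). Bax was not among the measured members. With the hybridization spikes 8 members of the list rose and 2 fell; Bcl2l11 did not pass there (limma adjusted p = 0.0947).

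Regulators tied to the Runx, Ets, GATA and Rbpj motifs went in both directions. Among 19 measured Notch, Runx and Ets regulators, 4 passed as higher and 1 as lower, which is 26.3% against 32.9% of all genes; the median was 0.09, against -0.05 for all genes. The list holds no forkhead factor; of those in other lists, Foxp3 was lower as given above, Foxo1 fell by 0.56 (limma adjusted p = 3.06e-06) and Foxo3 by 0.26 (limma adjusted p = 0.0214). Runx3 rose by 0.68 (SE 0.12, limma adjusted p = 0.00121), Fli1 by 0.36 (limma adjusted p = 0.00995), Gata3 by 0.31 (limma adjusted p = 0.00854) and the Notch target Dtx1 by 0.26 (limma adjusted p = 0.00841). Ets1, an abundant lymphocyte Ets factor, fell by 0.22 (SE 0.04, limma adjusted p = 0.00192); with the hybridization spikes it was at -0.06 (limma adjusted p = 0.582) and without the mean-variance trend it did not pass (limma adjusted p = 0.0696).

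Another family of immune GTPases, the interferon-inducible ones that act against pathogens inside cells, had 1 of 12 measured members higher, 4 lower and 7 not past the threshold (median -0.14), so 41.7% passed, against 32.9% of all genes. Gbp2b fell by 2.88 (SE 0.20, limma adjusted p = 1.2e-06), reading 5.28, 5.53 and 6.16 in USP7-titled arrays, against 8.61, 8.54 and 8.44 in control arrays. Gbp6 fell by 0.43 (limma adjusted p = 0.00434), Irgm2 by 0.32 (limma adjusted p = 0.0155) and Ifi47 by 0.18 (limma adjusted p = 0.0192), and Igtp rose by 0.15 (limma adjusted p = 0.0408). With the hybridization spikes 1 fell and 1 rose. The count past the threshold was 3 without USP7-titled replicate 2, without USP7-titled replicate 3 or without control replicate 2, and 2 without control replicate 1, against 5 with all arrays. Igtp did not pass without USP7-titled replicate 2 or 3 or control replicate 1 or 2 (limma adjusted p from 0.0987 to 0.158). Irgm2 did not pass without USP7-titled replicate 3 or control replicate 1 or 2, nor Ifi47 without USP7-titled replicate 1 or 2 or control replicate 1.

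Markers of the cell types in or near the sort were also read, and each count below stands against 17.0% of all genes higher, 15.9% lower and a median change of -0.05. Of 11 T cell markers 5 fell and 0 rose (median -0.11). Their summed linear signal was 56943 to 57768 in USP7-titled arrays, against 60849 to 62357 in control arrays. Cd3d, a T cell receptor chain, was at -0.07 (limma adjusted p = 0.118) and the adhesion receptor Cd2 at -0.06 (limma adjusted p = 0.179), both turning to 0.09 and 0.10 with the hybridization spikes, whereas the adaptor Lat fell by 0.40 (limma adjusted p = 0.000105) and Cd28 by 0.30 (limma adjusted p = 0.0147). Cd28 did not pass without control replicate 1 or 2 (limma adjusted p = 0.0660 and 0.0693). With the spikes 2 T cell markers rose and 1 fell, and without control replicate 2 the count that fell was 3. Of 10 Treg markers 9 fell, against 15.9% of all genes, with a summed signal of 32225 to 33325 in USP7-titled arrays, against 46800 to 49229 in control arrays; the most abundant, Izumo1r and Il2ra, fell by 0.36 and 0.17 and Nrp1 by 1.11.

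Cycling cell markers rose in 11 of 11 members, against 17.0% of all genes, with a summed signal of 20905 to 21470 in USP7-titled arrays, against 2732 to 3210 in control arrays. Mki67, a marker of dividing cells, rose by 2.16 and the cyclin Ccna2 by 3.29. Of 13 macrophage and monocyte markers 9 were higher and 1 lower, so 76.9% passed against 32.9% of all genes, and they summed to 7803 to 9412 in USP7-titled arrays, against 6775 to 7585 in control arrays; the complement gene C1qb rose by 2.86 and the most abundant, the protease gene Ctss, fell by 0.48. Neutrophil markers rose in 3 of 7 members (914.6 to 969.1 in USP7-titled arrays, against 455.1 to 528.7 in control arrays), led by S100a8 at 2.07; 42.9% of the list passed, against 32.9% of all genes. Of 10 CD8 T and NK markers 3 were higher and 1 lower (7967 to 8283 in USP7-titled arrays, against 3286 to 3389 in control arrays). So 40% of this list passed, which is near the share of all genes. Nkg7 rose by 2.76, to a mean of 12.24, the brightest of the list in USP7-titled arrays, and Gzma rose by 3.21. Prf1 fell by 0.45 (limma adjusted p = 0.00246), but did not pass with averaged probe sets (limma adjusted p = 0.0836). The CD8 chain genes Cd8a and Cd8b1, mentioned after their values were seen, were at 0.02 and -0.23 and did not pass (limma adjusted p = 0.944 and 0.178).

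Of the remaining markers, 1 of 9 B cell markers rose and 1 fell (22.2% past the threshold, against 32.9% of all genes). Of 6 dendritic cell markers 2 rose and 1 fell, and 0 of 3 erythroid markers passed either way by limma (0 at an unadjusted p under 0.05). Without USP7-titled replicate 2 or without control replicate 1, 1 B cell marker passed in place of 2, and without USP7-titled replicate 1 the count was 3. Summed B cell signal was 1548 to 1674 in USP7-titled arrays, against 1535 to 1566 in control arrays. The values carry no detection call, so no marker can be called absent. The part of these markers, or of cell division, in the GIMAP decrease was not tested.

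The genes whose pattern over the 6 arrays was nearest to the mean of the 3 GIMAP genes were picked by that likeness and are given without a test. Nearness was the root mean square distance between log2 values, each gene set to its own control mean, over 6104 genes brighter than the median gene. The nearest was Gpbp1l1, at a distance of 0.0118 and a change of -0.36. It was followed by the mitochondrial complex I subunit ND5 (0.0217), the survival gene Mcl1 (0.0231), Tnrc6b of the microRNA silencing machinery (0.0277), the endolysosomal channel Tpcn1 (0.0286), Smpdl3a (0.0329), the adaptor Sh3bp2 (0.033) and Fyb, an adaptor of T cell receptor signalling (0.0343). Their changes lay between -0.39 and -0.32. Gimap6 itself was 4th in this order, Gimap3 115th and Gimap4 181st.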

How the data were processed

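Expression was measured on Affymetrix-type arrays, 1 per sample, from total RNA amplified and labelled with biotin, per the labels' protocols. The authors deposited 1 log2 value per probe set and array. The base was inferred from their range (2.21 to 14.47 for gene probe sets), and how they were summarised and normalized is not given in the sources used here. No further normalization was applied. Of 22690 probe sets, 64 were the array's own controls and were not tested; 20380 had a single gene symbol in the platform annotation, 691 several and 1555 none. Of the 20380, 20351 matched the mouse reference table (GRCm38.p6) by gene identifier, and 0 symbols were updated. The reference gave names, gene order and upstream sequences.

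Each of 12393 genes was represented by its brightest probe set (mean of all 6 arrays). USP7-titled and control arrays were compared two-sided with limma 3.58.1 (R 4.3.3; linear model, empirical Bayes with mean-variance trend). P-values were adjusted by Benjamini-Hochberg over the 12393 genes, and 0.05 was the threshold. A change is the USP7-titled mean minus the control mean, with SE from that model. SE of single Gimap probe sets came from a fit over all 20380. The fit was also run on simulated data with independent noise and far fewer changed genes than were called here, so that run does not bear on these calls. Precision is limited by 3 arrays per group, with a residual SD of 0.136 for the median gene.

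The GIMAP genes and all gene lists were chosen with earlier results of these data known. Named were every Gimap probe set, Usp7, Hdac11 and Foxp3, neighbours past the threshold and the nearest on each side, up to 5 members per pathway list past the threshold with the largest change, and from each marker list up to 2 of the most abundant and 2 of the largest changes, of which the text gives part. Some further genes were named for their role or to complete a count. Alternatives were quantile normalization, array medians, hybridization spikes, a filter on dim probe sets, averaged probe sets, no trend, weighting of arrays, a block for the replicate number, and leaving out each array.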

Additional observations from a re-analysis of the deposited data

How the results depend on the processing

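Every alternative kept the sign of the Gimap3, Gimap4 and Gimap6 differences. With quantile normalization they were -0.46 for Gimap3, -0.42 for Gimap6 and -0.28 for the dimmer Gimap4 probe set. With the hybridization spikes they were -0.27 for Gimap3, -0.20 for Gimap6, and -0.0722 and -0.0881 for the dimmer and brighter Gimap4 probe sets. Leaving out 1 array at a time gave -0.44 to -0.42 for Gimap3, -0.39 to -0.35 for Gimap6, -0.24 to -0.22 for the dimmer and -0.27 to -0.22 for the brighter Gimap4 probe set. Gimap7 passed the threshold with array medians (0.18), spikes (0.33), dim probe sets left out (0.17), averaged probe sets (0.17) and array weights (0.18), and ran from 0.14 to 0.23 with 1 array left out; Gimap1 turned to 0.0607 with spikes and ran from -0.14 to -0.05 with 1 array left out. Hdac11 did not pass with averaged probe sets (-0.40) and ran from -0.69 to -0.44 with 1 array left out. Cd3d, Cd2 and Tmem176b turned to 0.0890, 0.0973 and 0.0565 with spikes, and Tmem176b ran from -0.30 to 0.0684 with 1 array left out. With spikes 9 resting lymphocyte genes, 2 interferon-inducible GTPases and 3 T cell markers passed; without trend 2 interferon-inducible GTPases, 1 T cell marker and 1 B cell marker passed. With dim probe sets left out 0 B cell, 1 neutrophil and 1 dendritic cell marker passed. Leaving out 1 array gave 2 to 5 interferon-inducible GTPases, 3 to 5 T cell and 1 to 3 B cell markers. The causes were not tested, other than fewer genes or arrays where these were left out. With the replicate number as a block, 4059 calls compare with 4078 without it, and Gimap7 was at 0.17 (limma adjusted p = 0.0660); same-numbered arrays did not deviate together (r = 0.0785, -0.0599 and 0.0940), so the numbers were not treated as pairs, and the block changed no call of Gimap1 or Gimap7. Changed genes were 2102 higher and 1976 lower as deposited and 2968 higher and 944 lower with spikes. With 3 arrays per group and no scanner files, neither background nor saturation could be examined, which matters most for signals as bright as those of the GIMAP probe sets.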
